A study of Mus musculus with 2 samples.

Results

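The 32 genes described here are markers and working parts of resident macrophages and related myeloid cells, taken as a fixed list of symbols from the 55536 annotated genes of each table. They were measured by total RNA sequencing of whole hearts. The hearts came from 2 female mice aged 10 days, and each gave 1 library. Both mice are B6CASTF1/J, a hybrid of the laboratory strain C57BL/6J with the wild-derived CAST/EiJ, and the labels name no treatment and no engineered allele. They are called biological replicates, 1 and 2, though a single donor record covers both, and each library started from 300 ng of RNA with spike-ins added. No second condition was part of the design, so the comparisons are between genes within a heart and between the 2 hearts.

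Resident macrophages settle in the heart before birth and are kept alive by signals through the receptor Csf1r. They clear dying cells and debris with scavenger receptors and with receptors that recognise exposed membrane lipids, and they make the C1q proteins that start the classical complement pathway. Monocytes that enter later from blood are usually told apart by the chemokine receptor Ccr2, while Folr2, Timd4 and Lyve1 are used to mark the resident cells.

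All 32 genes had reads in both libraries, with 7 to 4174 expected counts per gene and library. The median was 183.5 counts in replicate 1 and 185 in replicate 2. Together they took 12656 of 40184481 counts in annotated genes in replicate 1, a share of 0.0315% (exact 95% interval 0.0309 to 0.0320%, counting error only). In replicate 2 they took 13490 of 39620543 counts, or 0.0340% (0.0335 to 0.0346%). With detection set at 1 TPM in each library, 26 of the 32 were detected. The same was true of 23.1% of all annotated genes and of 53.3% of the 22028 protein-coding ones. TPM is the deposited abundance per transcript length, and levels of different genes are compared on that scale only.

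The median of the 32 genes was 2.99 TPM in replicate 1 and 3.12 TPM in replicate 2, a mean of 3.06 ± 0.085 (SD, n = 2). The 12838 detected genes had a median of 10.4 TPM in each library, so most of the listed genes stood in the lower part of the expressed range. Their own range was wide. Gas6 at the top averaged 54.3 TPM and Timd4 at the bottom 0.20 TPM, a 271-fold span. Mean levels of 10 TPM or more were reached by 7 genes (Gas6, Lyz2, Pf4, Csf1, C1qa, C1qb and Csf1r), 20 lay between 1 and 10 TPM, and 5 lay below 1 TPM (Trem2, Ccl24, Clec10a, Ms4a7 and Timd4). Of the 31 neighbouring pairs in this order, 4 were apart, that is with the same sign in both libraries and a mean log2 difference of TPM + 0.1 over 3 times its SD. They were Gas6 above Lyz2, Cbr2 above Cx3cr1, Trem2 above Ccl24 and Ccl24 above Clec10a. The other neighbours did not differ beyond that spread. The rule leaves out counting error, which is large for Ccl24 (13 and 15 counts) and Clec10a (8.84 and 15.9 counts) in replicates 1 and 2. In the deposited kallisto levels their order was reversed in replicate 1, with Clec10a at 0.72 TPM and Ccl24 at 0.58 TPM. By kallisto, Cbr2 had 3.81 and 5.35 TPM against 3.40 and 3.96 TPM for Cx3cr1 in replicates 1 and 2. Trem2 had 1.18 and 1.13 TPM against 0.58 and 0.86 TPM for Ccl24. Both gaps kept their sign but varied more between the libraries than by RSEM, so calling these 2 pairs apart rests on RSEM. Non-coding transcripts held 35.4% of Cbr2 TPM in replicate 1 by RSEM. In whole tissue, fewer macrophages and less RNA per macrophage cannot be told apart.

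**Figure D1:**
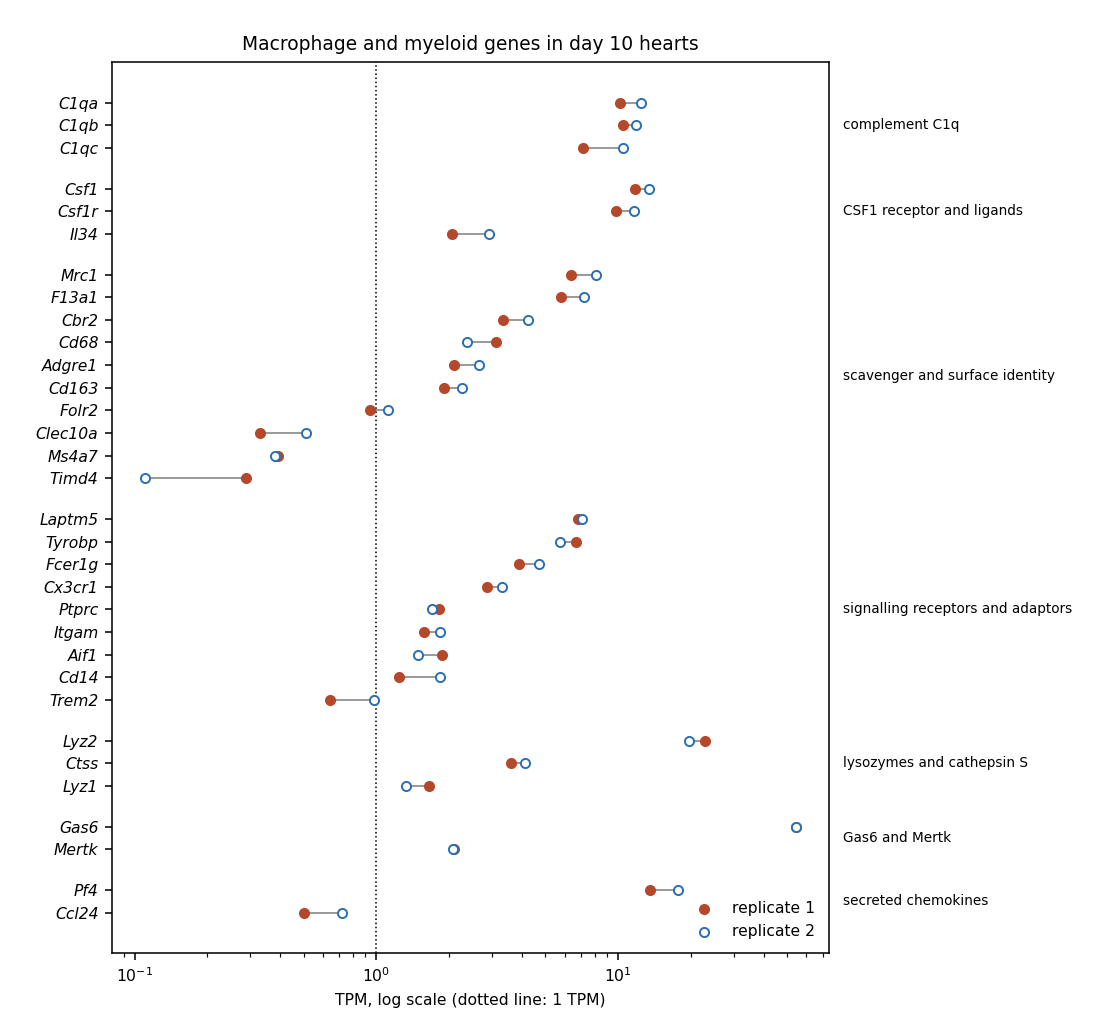
TPM of the 32 genes (log axis) in replicate 1 (filled) and replicate 2 (open), grouped by role and ordered by mean level within each role. Gas6 lies at 54.4 and 54.1 TPM, the 3 C1q genes lie between 7.18 and 12.4 TPM, and Clec10a, Ms4a7 and Timd4 lie below 1 TPM in both hearts.

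The genes for the 3 chains of C1q, the protein that recognises antibody and dying cells and starts the classical complement pathway, stood close together. C1qa had 10.2 TPM in replicate 1 and 12.4 TPM in replicate 2. C1qb had 10.5 and 11.8 TPM in replicates 1 and 2. C1qc had 7.18 and 10.5 TPM in replicates 1 and 2. All 3 values were lower in replicate 1. The genes are neighbours on the minus strand of chromosome 4 in assembly mm10, within 18.7 kb (136880129 to 136898803), and each functional C1q molecule needs all 3 chains. The log2 ratio of C1qa to C1qb was 0.01 ± 0.081 and that of C1qc to C1qb was -0.35 ± 0.27 (SD, n = 2 libraries), so no chain was apart from C1qb. In counts, C1qc had 248 in replicate 1 and 356 in replicate 2, a log2 ratio (replicate 1 over replicate 2) of -0.56 ± 0.12 (counting SE). Its adjusted p was 3.9e-05 in the exact binomial test between the 2 libraries, a test that 17.3% of all 16517 tested genes passed, 9.96% as lower and 7.33% as higher in replicate 1. C1qa, with 299 counts in replicate 1 and 357 in replicate 2, had a log2 ratio of -0.30 ± 0.11 (adjusted p = 0.055, exact binomial test). C1qb, with 325 and 358 counts in replicates 1 and 2, had one of -0.18 ± 0.11 (adjusted p = 0.32, exact binomial test).

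The next group is the survival receptor of macrophages and its ligands. Csf1r, the receptor tyrosine kinase on which tissue macrophages depend (chromosome 18, 61100598 to 61132149), had 9.79 TPM in replicate 1 and 11.6 TPM in replicate 2. Its ligand Csf1 (chromosome 3, 107741048 to 107760469) had 11.7 and 13.4 TPM in replicates 1 and 2. Il34, the other ligand of the receptor, known for keeping microglia and Langerhans cells, had 2.06 and 2.92 TPM in replicates 1 and 2. Csf1 exceeded Il34 by 4.94-fold on average, with a log2 ratio of Il34 to Csf1 of -2.31 ± 0.20 (SD, n = 2), and the 2 ligands were apart. The gap depends on how Il34 is counted. By kallisto the log2 ratio was -2.70 ± 0.37, and by RSEM non-coding transcripts held 38.99% of Il34 TPM in replicate 1 and 55.6% in replicate 2, the transcript Il34-205 from 7.43 and 15.09 counts. The receptor stood 1.17-fold below Csf1 (log2 ratio -0.23 ± 0.029), a small gap that was similar in both hearts.

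Counts and TPM of Csf1r differed in their ratio between the hearts. The gene had 1092 counts in replicate 1 and 1113 in replicate 2, a log2 ratio of -0.07 ± 0.061 (adjusted p = 0.56, exact binomial test), while its TPM was 9.79 in replicate 1 and 11.6 in replicate 2. The 416-nt transcript Csf1r-205 held 7.20% of the gene's TPM in replicate 1 and 20.6% in replicate 2, from 7 and 23.24 counts; its TPM was 0.70 in replicate 1 and 2.39 in replicate 2. Csf1 had 1185 counts in replicate 1 and 1380 in replicate 2, a log2 ratio of -0.26 ± 0.057 (adjusted p = 8.4e-05, exact binomial test). Il34 had 74 and 85 counts in replicates 1 and 2 and a log2 ratio of -0.24 ± 0.23 (adjusted p = 0.61, exact binomial test).

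Scavenger receptors and surface markers made the largest group, with 10 genes and 6 detected. Mrc1, the mannose receptor that takes up glycoproteins (chromosome 2, 14229392 to 14332057), led it with 6.38 TPM in replicate 1 and 8.07 TPM in replicate 2. F13a1, the A subunit of coagulation factor XIII, made by tissue macrophages (chromosome 13, 36867178 to 37050244), had 5.80 and 7.22 TPM in replicates 1 and 2. Cbr2, a carbonyl reductase that marks resident cardiac macrophages in mouse, had 3.35 and 4.22 TPM in replicates 1 and 2. By RSEM, non-coding transcripts held 35.4% of Cbr2 TPM in replicate 1 and 0% in replicate 2. By kallisto they held 18.3 and 4.99%. The coding transcript Cbr2-201 had 1.86 and 3.72 TPM by RSEM in replicates 1 and 2. These 3 genes were lower in replicate 1 beyond counting error.

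Cd68, a protein of late endosomes and lysosomes used as a general macrophage stain, had 3.13 TPM in replicate 1 and 2.36 TPM in replicate 2. Adgre1, the gene of the F4/80 antigen, had 2.09 and 2.66 TPM in replicates 1 and 2. Cd163, the scavenger receptor for haptoglobin-bound haemoglobin, had 1.91 and 2.26 TPM in replicates 1 and 2. Mrc1 stood 3.34-fold above Cd163, with a log2 ratio of Cd163 to Mrc1 of -1.74 ± 0.073 (SD, n = 2), apart in both hearts. None of Cd68, Adgre1 and Cd163 passed the test between the hearts.

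Of the 10 genes in this group, 4 were at its low end. Folr2, a folate receptor of resident macrophages, had 0.94 TPM in replicate 1 and 1.12 TPM in replicate 2, from 26 and 30 counts. Clec10a, a galactose-type lectin, had 0.33 and 0.51 TPM in replicates 1 and 2, from 8.84 and 15.9 counts. Ms4a7, a membrane protein enriched in macrophages, had 0.39 TPM in replicate 1 and 0.38 TPM in replicate 2, from 17 and 12 counts. Timd4, the phosphatidylserine receptor used to mark self-renewing cardiac macrophages, had 0.29 TPM in replicate 1 and 0.11 TPM in replicate 2. Timd4 rested on 19 and 7 counts in replicates 1 and 2 (exact Poisson 95% intervals 11.4 to 29.7 and 2.81 to 14.4, counting error only). It had the widest ratio of the 32 genes, log2 1.34 ± 0.62, which did not pass the exact binomial test (adjusted p = 0.14). The chemokine receptor Ccr2, the marker of recruited cells, had 0.56 and 0.58 TPM in replicates 1 and 2. The log2 ratio of Ccr2 to Folr2 was -0.75 ± 0.13 (SD, n = 2), with Folr2 1.68-fold higher per length. On counts not divided by length the ratio turned to 1.15, with Ccr2 higher, so the direction of this small gap depends on the length correction.

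Sequence before the RefSeq start is shown for 6 genes with the letters GAGGAAG on either strand within the printed stretch. These letters are the core that the macrophage transcription factor PU.1 is known to bind. Each line gives the 100 bases before the RefSeq start (GRCm38.p6), 5′ to 3′ on the gene's own strand, with capitals for GAGGAAG or its reverse complement. Mrc1 (chr2:14229314-14229413, plus strand), F13a1 (chr13:37050245-37050344, minus strand) and Cbr2 (chr11:120732022-120732121, minus strand) are shown because they differed between the hearts beyond counting error. Itgam (chr7:128062540-128062639, plus strand), Trem2 (chr17:48346301-48346400, plus strand) and Laptm5 (chr4:130913216-130913315, plus strand) did not pass that test. In the M21 annotation Laptm5 begins at 130913125, so its stretch lies wholly inside the annotated gene. Cbr2 reaches 120732114 on the minus strand, so most of its stretch, with the marked letters, lies inside too. Annotated Mrc1 begins at 14229392, within the end of its stretch and after the marked letters.
Mrc1: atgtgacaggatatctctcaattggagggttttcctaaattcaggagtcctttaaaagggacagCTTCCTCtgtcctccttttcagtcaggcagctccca
F13a1: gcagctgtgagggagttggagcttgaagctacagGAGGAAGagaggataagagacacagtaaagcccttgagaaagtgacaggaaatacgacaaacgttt
Cbr2: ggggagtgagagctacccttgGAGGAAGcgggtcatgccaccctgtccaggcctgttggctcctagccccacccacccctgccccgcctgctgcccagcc
Itgam: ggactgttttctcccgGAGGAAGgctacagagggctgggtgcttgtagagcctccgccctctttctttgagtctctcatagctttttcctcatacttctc
Trem2: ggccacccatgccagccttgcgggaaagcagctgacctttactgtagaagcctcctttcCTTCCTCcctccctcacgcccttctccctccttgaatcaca
Laptm5: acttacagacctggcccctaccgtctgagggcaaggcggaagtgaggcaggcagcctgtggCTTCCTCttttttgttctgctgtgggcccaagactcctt
The match begins 36 bases before the start in Mrc1, 66 in F13a1, 79 in Cbr2, 84 in Itgam, 41 in Trem2 and 39 in Laptm5. RefSeq windows of 250 bases before to 50 after a start were matched by symbol for 24 of the 32 genes, all but Csf1r, Adgre1, C1qa, Il34, Clec10a, Cd14, Ccl24 and Tyrobp. GAGGAAG occurred on either strand in 9 of these 24 genes (37.5%), the printed 6 with C1qc, Ctss and Pf4, against 15.4% of all 27025 symbols with a window. GAANTGAAA, an IRF and PU.1 composite in which N is any base, occurred in 4 of 24 genes (Ctss, Folr2, Timd4 and Cd68), against 2.15% of all symbols. Its letters can overlap those of GAGGAAG, but in Ctss, the gene with both, the matches lie apart. TATAAA occurred in 3 of 24 (Ptprc, Ctss and Laptm5), or 12.5% against 15.7% of all symbols. A match describes letters and is no evidence of binding.

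Receptors and adaptors of myeloid signalling numbered 9, of which 8 were detected. Laptm5, a lysosomal membrane protein of blood cells, had 6.81 TPM in replicate 1 and 7.05 TPM in replicate 2. Tyrobp, the DAP12 adaptor that carries an activation motif for several receptors, had 6.66 and 5.75 TPM in replicates 1 and 2. Fcer1g, the shared gamma chain of Fc receptors, had 3.89 and 4.70 TPM in replicates 1 and 2. The log2 ratio of Fcer1g to Tyrobp was -0.52 ± 0.34 (SD, n = 2), so these adaptors were not apart.

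Trem2, a lipid receptor that signals through Tyrobp, had 0.64 TPM in replicate 1 and 0.98 TPM in replicate 2. It stood 7.03-fold below its adaptor, with a log2 ratio of Trem2 to Tyrobp of -2.81 ± 0.53 (SD, n = 2), apart in both hearts. Cx3cr1, the fractalkine receptor, had 2.86 and 3.31 TPM in replicates 1 and 2. Ptprc, the CD45 phosphatase found on all nucleated blood cells, had 1.82 TPM in replicate 1 and 1.69 TPM in replicate 2. Itgam, the CD11b integrin chain, had 1.57 and 1.84 TPM in replicates 1 and 2. Aif1, the calcium-binding protein also called IBA1, had 1.86 and 1.48 TPM in replicates 1 and 2. Cd14, a co-receptor for bacterial lipopolysaccharide, had 1.24 and 1.84 TPM in replicates 1 and 2. None of these 9 genes passed the exact binomial test between the hearts, and their adjusted p-values ran from 0.067 for Cd14 to 1 for Itgam.

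Lysozymes digest bacterial cell walls, and mouse has a pair of genes for them. Lyz2, the form of macrophages and other myeloid cells (chromosome 10, 117277331 to 117282321), came next after Gas6, with 22.8 TPM in replicate 1 and 19.6 TPM in replicate 2. Lyz1, the form of intestinal Paneth cells (chromosome 10, 117287797 to 117292868), had 1.65 and 1.33 TPM in replicates 1 and 2. The log2 ratio of Lyz1 to Lyz2 was -3.75 ± 0.054 (SD, n = 2), with Lyz2 13.4-fold higher on average. Lyz2 was higher in replicate 1 than in replicate 2, with 868.76 against 733.42 counts and a log2 ratio of 0.20 ± 0.072 (adjusted p = 0.031, exact binomial test). Lyz1 had 60.24 and 47.58 counts in replicates 1 and 2, a log2 ratio of 0.30 ± 0.28 (adjusted p = 0.64, exact binomial test). Ctss, the gene of cathepsin S, a protease of antigen-presenting cells, had 3.61 and 4.12 TPM in replicates 1 and 2.

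The split between the lysozymes rests on sequence that is nearly the same. The coding sequences are 447 nt each and differ at 22 positions (95.1% identity), and the RefSeq starts lie 10596 bases apart on the minus strand. The lines below show coding positions 61 to 120, in lower case with capitals at the 9 positions where the genes differ, for Lyz1 (chr10:117292719-117292778) and Lyz2 (chr10:117282123-117282182) in GRCm38.
Lyz1: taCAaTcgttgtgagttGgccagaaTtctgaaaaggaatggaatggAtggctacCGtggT
Lyz2: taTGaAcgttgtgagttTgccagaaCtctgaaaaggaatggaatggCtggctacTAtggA
This stretch was chosen as the 60-base window of the coding sequence with the most differences. A read that covers it can be placed by several of them. The CAST/EiJ alleles of these hybrids were not compared. Of all 100-base stretches of the Lyz1 transcripts, 2.06% also occur in Lyz2, and 1.97% of those of Lyz2 occur in Lyz1. The deposited counts of both genes are fractional, which shows that some reads were shared out between genes, so the level of Lyz1 carries that uncertainty. In the 120 bases before the RefSeq starts, 9 positions differ (92.5% identity). The RefSeq start of Lyz2 lies inside the gene as the M21 annotation gives it, so part of its stretch is within that annotated gene. Over all 250 bases before the RefSeq starts, compared position by position without gaps, identity was 60.8%. The lines below give those 120 bases for Lyz1 (chr10:117292869-117292988) and Lyz2 (chr10:117282273-117282392), again with capitals at the differences, because these genes differed 13.4-fold in level.
Lyz1: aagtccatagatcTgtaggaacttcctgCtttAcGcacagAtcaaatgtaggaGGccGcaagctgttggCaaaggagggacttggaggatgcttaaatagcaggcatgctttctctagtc
Lyz2: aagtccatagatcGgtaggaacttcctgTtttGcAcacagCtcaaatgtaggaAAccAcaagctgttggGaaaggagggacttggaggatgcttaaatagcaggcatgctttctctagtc

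Gas6 bridges exposed phosphatidylserine on dying cells to the TAM receptors Tyro3, Axl and Mertk, and Mertk is the receptor with which macrophages engulf dying heart muscle cells. Gas6 (chromosome 8, 13465374 to 13494490) had 54.4 and 54.1 TPM in replicates 1 and 2, the highest level of the 32 genes. Mertk (chromosome 2, 128698956 to 128802894) had 2.10 and 2.08 TPM in replicates 1 and 2. Both genes had nearly equal levels in the 2 hearts, with 4174 and 4068 counts for Gas6 and 276 and 268 counts for Mertk in replicates 1 and 2. Their log2 ratios were -0.003 ± 0.032 and 0.002 ± 0.12 (counting SE) with TMM scaling. Scaled by the spike-ins, which put the median of all genes at 0.10, the ratio of Gas6 was also 0.10 and passed the exact binomial test (adjusted p = 0.0057).

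Gas6 stood far above its receptor Mertk but not far above Axl. Gas6 exceeded Mertk by 24.8-fold, with a log2 ratio of Mertk to Gas6 of -4.63 ± 0.003 (SD, n = 2). Axl, which is also made by cells of the vessel wall and by fibroblasts, had 45.6 TPM in replicate 1 and 46.0 TPM in replicate 2. Its counts were lower in replicate 1, with a log2 ratio of -0.19 (adjusted p = 1.4e-08, exact binomial test), the only call among 7 TAM and colony stimulating partners. Mertk stood 20.95-fold below Axl and Tyro3 17.3-fold below Axl. Pros1, the other TAM ligand, had 11.2 and 10.9 TPM in replicates 1 and 2 and stood 4.87-fold below Gas6. All of the pairs given with a fold were apart in both hearts. Gas6 and Axl are not specific to macrophages, and which cells made these RNAs was not tested.

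The list holds 2 secreted chemokines. Pf4, the platelet factor CXCL4, which resident macrophages of mouse also make, had 13.6 TPM in replicate 1 and 17.7 TPM in replicate 2. Its log2 ratio was -0.35 ± 0.14, from 185 and 229 counts in replicates 1 and 2 (adjusted p = 0.083, exact binomial test). Ccl24, which attracts eosinophils, had 0.50 and 0.72 TPM in replicates 1 and 2, from 13 and 15 counts. Pf4 stood next after Lyz2 among the 32 genes, and Ccl24 was among the 5 with means below 1 TPM.

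Between the 2 hearts, none of the 32 genes passed both an adjusted p of 0.05 and a 2-fold ratio in the exact binomial test. Of 16517 tested genes, 1.27% did. The exact test of edgeR, with a dispersion taken from the same 2 libraries, called none of the 32 genes by that rule either, against 0.763% of all tested genes. That dispersion counts the differences between the 2 hearts as spread. The edgeR test can therefore call only genes that differ by more than that spread. At an unadjusted p under 0.05 the count was 14 of 32 in the exact binomial test, against 27.0% of all tested genes, and 4 of 32 in the edgeR exact test, against 5.10%. A ratio within 1.5-fold held for 27 of the 32 genes. The test weighs reads of 1 library against another, so it compares these 2 hearts and says nothing of a condition.

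Without the fold rule, 6 of the 32 genes differed beyond counting error at an adjusted p under 0.05, against 17.3% of all tested genes. Csf1, C1qc, Mrc1, F13a1 and Cbr2 were lower in replicate 1, where 9.96% of all tested genes were. Lyz2 was higher in replicate 1, where 7.33% of all tested genes were. Such calls were rarer at lower counts. Among the 19 listed genes with 100 to 1000 summed counts 2 were called, against 11.0% of all genes in that range. These shares are near the background, so the number of calls is no result about macrophage genes. None of the 32 genes was called in this way by the edgeR exact test, which called 1.01% of all tested genes, and where adjusted p-values for these 6 ran from 0.47 for C1qc to 1.

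The sizes of the called differences were small. Mrc1 had 1044 counts in replicate 1 and 1300 in replicate 2, a log2 ratio of -0.36 ± 0.06 (adjusted p = 6.7e-08, exact binomial test). F13a1 had 615 and 787 counts in replicates 1 and 2 and a log2 ratio of -0.40 ± 0.078 (adjusted p = 6.4e-06, exact binomial test). Cbr2 had 78.86 and 121 counts in replicates 1 and 2, the largest called ratio at -0.65 ± 0.21 (adjusted p = 0.015, exact binomial test). All 3 were thus between 1.28-fold and 1.57-fold lower in replicate 1.

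**Figure D2:**
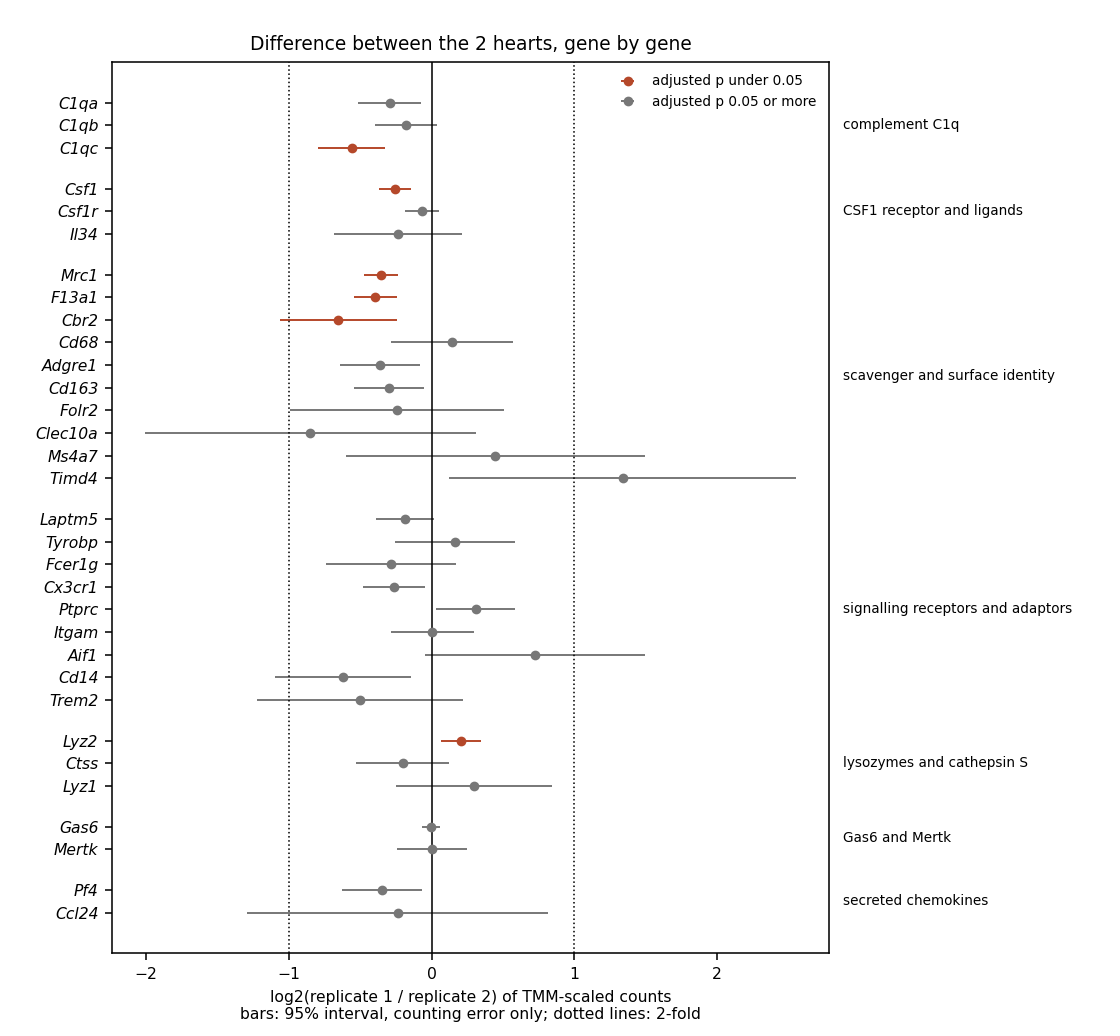
log2 ratio of replicate 1 over replicate 2 of TMM-scaled counts for the 32 genes, with 95% intervals from counting error only; dotted lines mark 2-fold and colour marks an adjusted p under 0.05. Most points lie left of 0, and the wide bars of Timd4, Clec10a and Ccl24 come from few counts.

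The direction was shared by most of the list. Among the 28 genes with a mean CPM of 0.5 or more, 20 were lower and 8 higher in replicate 1, against 51.2% lower among all 14943 such genes. The median log2 ratio was -0.24 over the 28 genes and -0.004 over all genes. By role, the median was -0.30 for C1q, -0.24 for the Csf1r group, -0.36 for scavenger and surface genes, -0.19 for receptors and adaptors and 0.20 for lysozymes and cathepsin S. Gas6 and Mertk lay at 0 to within 0.003. Genes of a list that share a cell source are not independent of each other, and no test of the joint shift was made.

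Other tissue components moved between the same 2 hearts and are given here as measured. All 5 erythroid genes were called 2-fold lower in replicate 1, where their TPM summed to 5269, against 12984 in replicate 2. All 4 adipocyte genes were called higher in replicate 1, with a sum of 63.2 TPM against 9.83 TPM in replicate 2. Ucp1 of brown fat had 44.5 TPM in replicate 1, against 6.85 TPM in replicate 2. The atrial genes Nppa, Myl7 and Myl4 summed to 497 TPM in replicate 1 and 917 TPM in replicate 2, all lower in replicate 1 by the exact binomial test but none by 2-fold. Endothelial genes summed to 331 and 332 TPM and fibroblast genes to 825 and 855 TPM in replicates 1 and 2. The part of these differences in the ratios of the macrophage genes was not tested.

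**Figure D3:**
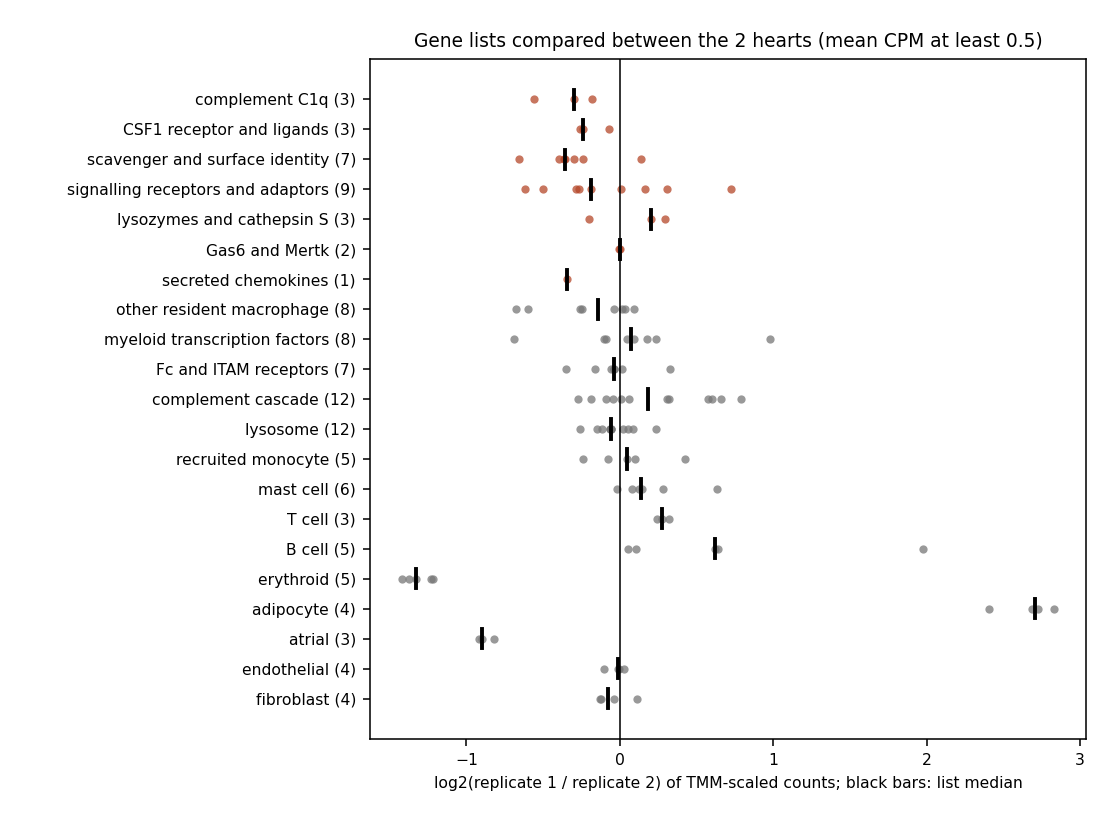
log2 ratio of replicate 1 over replicate 2 for each gene (points) and list medians (black bars); the 7 role groups of the 32 genes are coloured and other lists are grey, with gene numbers in brackets. Erythroid (-1.33) and adipocyte (2.71) medians lie far outside the range of the macrophage groups.

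The label of the list was checked against other markers. Of 12 further markers of resident macrophages 7 were detected, led by Selenop, a selenium transport protein made in many cell types, with 114 TPM in replicate 1 and 115 TPM in replicate 2. Stab1, a scavenger receptor shared with endothelium, had 31.8 and 34.7 TPM in replicates 1 and 2, and Sirpa, the receptor of the signal that blocks phagocytosis, had 11.5 and 13.4 TPM. Lyve1 had 3.86 and 5.60 TPM in replicates 1 and 2 and is also a lymphatic endothelial gene (chosen after its values were seen). These last 3 were the only calls of the exact binomial test among the list's 8 tested genes, against 17.3% of all tested genes. All 3 were lower in replicate 1, where 9.96% of all tested genes were. The edgeR exact test called none of them. Vsig4 and the Cd209 lectins were at or below 0.24 TPM in both libraries, with Cd209g at 0 in both.

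Markers of other leukocytes were mostly near 0. Of 7 T cell, 6 B cell and 5 NK cell genes none was detected, and 2 NK genes were at 0 in both libraries. The summed levels in replicates 1 and 2 were 3.70 and 2.68 TPM for T cells, 3.58 and 1.98 TPM for B cells, and 0.16 and 0.06 TPM for NK cells. Of 11 neutrophil genes 2 were detected. S100a8, a calcium-binding protein, was called lower in replicate 1 at 1.49 TPM against 3.19 TPM in replicate 2, from 18 and 38 counts. The adjusted p was 0.046 in the exact binomial test and 0.67 in the edgeR exact test. The partner of S100a8, S100a9, had 2.09 and 1.97 TPM in replicates 1 and 2. The defining neutrophil genes Ly6g and Elane were at 0 in replicate 1 and at 0.14 and 0.04 TPM in replicate 2.

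Mast cell genes were present at low level, with 5 of 7 detected and sums of 10.1 TPM in replicate 1 and 8.72 TPM in replicate 2. Tpsb2 and Cma1, a tryptase and a chymase of mast cell granules, led at 2.41 and 2.10 TPM in replicate 1 and 2.36 and 1.70 TPM in replicate 2. No mast cell, dendritic or T cell gene passed the test between the hearts. Of 8 recruited monocyte genes, Vcan (20.8 and 20.7 TPM in replicates 1 and 2), a matrix proteoglycan also made by fibroblasts, and Ly6c2 (2.32 and 2.65 TPM) were detected. Vcan counts were higher in replicate 1, the only call of that list (adjusted p = 0.015, exact binomial test). Among 9 dendritic cell genes only Zbtb46, which endothelium also expresses, reached 1 TPM in both, at 6.41 and 6.19 TPM in replicates 1 and 2. Of 6 markers of macrophages in other organs, Tmem119 was the only one detected, at 5.89 and 6.38 TPM in replicates 1 and 2. It marks microglia in brain and is also known from bone-forming cells. P2ry12, another microglial marker, had 0.82 and 0.78 TPM in replicates 1 and 2.

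**Figure D4:**
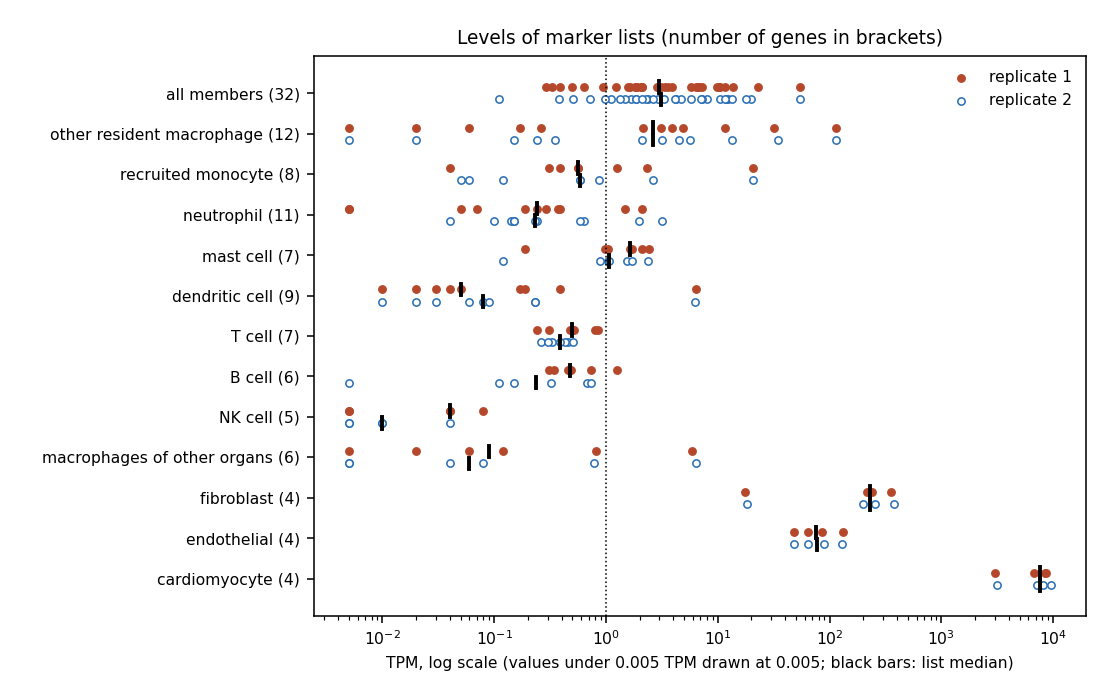
TPM (log axis) of every gene of the marker lists in replicate 1 (filled) and replicate 2 (open), with black bars at list medians. The 32 macrophage and myeloid genes have medians of 2.99 and 3.12 TPM, lymphocyte, NK and dendritic medians lie below 1 TPM, and cardiomyocyte medians are 7575 and 7644 TPM.

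Partners of the listed genes were read from wider lists. Among 8 myeloid transcription factors 7 were detected, led by Zeb2, with 31.4 and 29.8 TPM in replicates 1 and 2, and Cebpb, with 12.5 and 20.05 TPM. Irf8, needed for monocyte and macrophage fate, had 3.10 and 2.65 TPM in replicates 1 and 2. Cebpb was lower and Cebpa higher in replicate 1 by the exact binomial test, and Spi1, which encodes PU.1, had 1.20 and 1.23 TPM in replicates 1 and 2 (Cebpa and Spi1 chosen after their values were seen). Cebpa had 3.07 TPM in replicate 1 and 1.63 TPM in replicate 2 and is also an adipocyte factor.

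The 12 other complement genes on the list were all detected. Cd93, an endothelial receptor once taken for a C1q receptor, led with 81.0 TPM in replicate 1 and 79.8 TPM in replicate 2. Serping1, the inhibitor of the C1 proteases, had 24.3 and 23.3 TPM in replicates 1 and 2. C3, on which all complement pathways meet, had 26.7 TPM in replicate 1, against 15.4 TPM in replicate 2. The direction was unlike that of C1q for C3, C4b, C2, Cfb and C1s1, which were higher in replicate 1 by the exact binomial test (adjusted p 3.9e-102 for C3 to 0.0095 for C2). The difference between the C1q genes and these genes was not tested. Of the 12 complement genes, the edgeR exact test called only C3 (adjusted p = 0.0058).

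Of 11 Fc receptors, ITAM kinases and related receptors 4 were detected. The kinase Syk, which acts downstream of Tyrobp and Fcer1g, had 7.09 and 8.05 TPM in replicates 1 and 2. The phospholipase Plcg2 had 4.10 and 4.18 TPM and the receptor Fcgr3 2.98 and 3.75 TPM in replicates 1 and 2. None of the 8 tested genes passed the test between the hearts. Lysosomal genes were abundant, 11 of 12 detected and led by the proteases Ctsd (212 and 217 TPM in replicates 1 and 2) and Ctsb (150 and 171 TPM), and by Lamp1 (130 and 134 TPM). Of the 12, 2 passed the exact binomial test as lower and 2 as higher in replicate 1. All heart cells have lysosomes, so these genes do not mark macrophages.

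Chemokines other than Pf4 and Ccl24 were mostly near 0, with 4 of 15 detected. Cxcl12, a stromal chemokine, had 60.8 TPM in replicate 1 and 61.1 TPM in replicate 2. Ccl9 and Ccl6, of myeloid cells, followed at 1.15 and 1.80 TPM in replicate 1 and 2.14 and 1.74 TPM in replicate 2, and Ccl9 was lower in replicate 1 (adjusted p = 0.017, exact binomial test). Of 9 genes of macrophage activation, Tgfb1 (18.4 and 18.7 TPM in replicates 1 and 2) and Nos2 (4.48 and 3.81 TPM) were detected. Which heart cells made the Tgfb1 and Nos2 RNA was not tested. The cytokines Il1b, Il6 and Tnf were at or below 0.35 TPM in both hearts, Il10 was at 0 in both, and Arg1 was at 0 in replicate 1 and 0.02 TPM in replicate 2 (all chosen after their values were seen). None of the 4 tested activation genes passed the test.

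Transcript shares showed how far the deposited tables resolve these genes. Of the 32 genes, 26 have at least 2 annotated transcripts, and 20 of those had at least 50 counts in each library. In 17 of the 20, RSEM and kallisto named the same leading transcript in both libraries, and all 20 leading transcripts were protein-coding. The shares were high and close for Mrc1-201 (98.5% in replicate 1 and 99.1% in replicate 2 by RSEM), C1qc-201 (99.4 and 99.6%), Fcer1g-201 and Mertk-201 (100% each in both).

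For Csf1 the methods named the same transcript but gave it different weight. Csf1-201, of 4176 nt, held 55.6% in replicate 1 and 54.9% in replicate 2 by RSEM, and 78.1 and 79.6% by kallisto. Csf1r-201 held 81.6 and 67.4% in replicates 1 and 2 by RSEM, and 96.4 and 83.4% by kallisto. For 3 genes the methods or libraries disagreed. Cx3cr1-201 held 83.03 and 92.9% in replicates 1 and 2 by RSEM but 3.83 and 22.1% by kallisto, which gave another transcript the lead. Tyrobp-201 held 100 and 58.4% by RSEM and 56.3 and 12.9% by kallisto in replicates 1 and 2. Ctss-202 held 100% in both by RSEM, and 99.995 and 50% by kallisto in replicates 1 and 2, where Ctss-201 of the same length, 1355 nt, took the rest. Transcript choice for these 3 genes cannot be read from these tables, and the counts summed per gene do not depend on it.

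**Figure D5:**
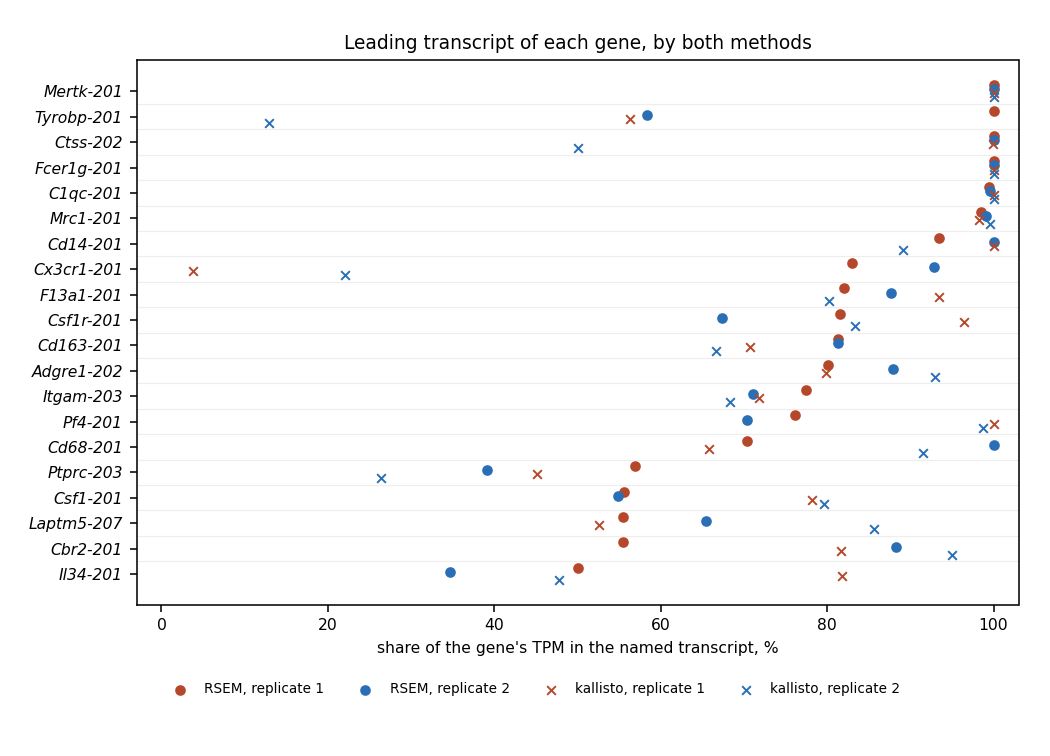
Share of the gene's TPM (%) in the transcript that led by RSEM in replicate 1, for 20 genes, by RSEM (dots) and kallisto (crosses) in replicate 1 and replicate 2. Mertk-201, Fcer1g-201, C1qc-201 and Mrc1-201 sit near 100% by both, and Cx3cr1-201 and Tyrobp-201 are far apart.

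Gene levels by the 2 methods had nearly the same order over the 32 genes (Spearman 0.994, across genes, which share libraries and depth). The kallisto level was higher for 29 of 32, with a median ratio of 1.20. Counts were whole numbers for 28 of the 32 genes, to within 0.005, and fractional for Lyz1, Lyz2, Clec10a and Cbr2, whose reads were in part shared out.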

How the data were processed

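Total RNA libraries from 2 hearts of 1 group were used. Per the labels, 300 ng of RNA and ERCC spike-ins entered each. Expected counts and TPM per gene, and TPM with the percent of the gene's TPM per transcript, were deposited by the authors on mm10 with annotation M21. A further deposited table per library holds estimated counts and TPM per transcript. The column names per the file headers are those of RSEM and kallisto; the sources used here do not give tool versions. Depth was 40184481 and 39620543 expected counts in annotated genes in replicates 1 and 2. The 26248 entries with numeric identifiers, with 3.84 and 2.92 counts, and the spike-ins stayed out.

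Counts were rounded and scaled by TMM (edgeR 4.0.16, R 4.3.3). The libraries were compared gene by gene by a two-sided exact conditional binomial test on 16517 genes with a summed count of 20 or more, with Benjamini-Hochberg adjustment. Called genes had an adjusted p under 0.05, and 2-fold calls also a ratio of 2 or more (prior count 0.5). Counting SE, intervals and p-values cover counting error only. The edgeR quasi-likelihood test and DESeq2 need groups and could not be fitted, and DESeq2 1.42.0 gave size factors only. The test was checked on simulated data. Ratios of gene pairs used TPM + 0.1 and were read as apart where both libraries had 1 sign and the mean exceeded 3 SD. The 32 members and all lists were chosen with earlier results of these data known. All 32 genes are named. From other lists, the 3 most abundant genes and all 2-fold calls were to be named, and some results of these lists are not reported here. Scripts ran in Python 3.11.15 with matplotlib 3.10.9, scipy 1.17.1, pandas 2.3.3 and numpy 2.4.6.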

Additional observations from a re-analysis of the deposited data

How the results depend on the processing

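No 2-fold call was made among the 32 genes under any alternative tried. The count beyond counting error was 6 with TMM, DESeq2 size factors, library totals or no count filter, 5 with kallisto counts, 7 with a summed count of 100 or more, 8 on the spike-in scale and 4 at a threshold of 0.01, an alternative chosen after seeing the data. The edgeR exact test gave 0. By kallisto, Lyz2 lost its call (log2 0.13, adjusted p = 0.28), and on the spike-in scale Ptprc (0.42, adjusted p = 0.018) and Gas6 (0.10, adjusted p = 0.0057) gained one, all by the exact binomial test. The spike-in scale put the median of all genes at 0.10, against -0.004 with TMM. On it the median of the 28 genes was -0.13 in place of -0.24, and Gas6 turned from lower to higher in replicate 1. Other settings left that median between -0.25 and -0.20, the ratio of TPM among them (-0.22, also chosen after seeing the data).

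Detection ranged from 20 genes (2 TPM) to 29 (0.5 TPM, or TPM over nuclear protein-coding genes), and was 27 without replicate 1 and 26 without replicate 2. The list median was 3.50 TPM by kallisto and 7.21 TPM over nuclear protein-coding genes, against 3.06, and 2.99 to 3.12 with either replicate left out. The ratios of Lyz1 to Lyz2 and of Il34 to Csf1 kept their sign in all settings and stayed apart in those that used both libraries. Ccr2 to Folr2 turned to 1.15 on counts not scaled by length. No paired analysis was possible because the labels give 1 group. Genes with few counts, such as Timd4, could show only large differences at this depth.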
